A study of Mus musculus with 4 samples.

Results

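The genes described here are 10 that encode enzymes of glycolysis: the hexokinases Hk1 and Hk2, the phosphofructokinases Pfkp and Pfkl, the aldolases Aldoa and Aldoc, Pgk1, Eno1, Pkm and Ldha. They were taken by symbol from 4 single-cell RNA-seq libraries, and all 10 were found among the 23635 genes listed. Each library is of a tumour that was transplanted as Py8119 cells, a mammary carcinoma line of the mouse that came from an MMTV-PyMT tumour. In the Sema4d-shRNA group (2 libraries) the tumour line carried a short hairpin RNA (shRNA) against Sema4d, a membrane-bound semaphorin, and in the NC group (2 libraries) it was a control. The labels give no age, sex, host strain, hairpin sequence or time of growth, and describe 1 line for both groups. Nothing in them says that the 2 libraries of a group came from separate animals, so p-values measure the spread between these libraries, which may be technical.

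Glycolysis turns glucose into pyruvate in a chain of cytosolic steps, and lactate dehydrogenase then turns pyruvate into lactate. Several steps have isozymes from separate genes that differ between cell types: Hk1 is the widely expressed hexokinase and Hk2 the inducible one of muscle, tumours and activated immune cells, while Aldoa is the muscle-type and widely expressed aldolase and Aldoc the brain-type one. Many of these genes are known targets of the hypoxia-inducible factor HIF-1 and of Myc, and raised glycolysis is a known feature of carcinoma cells and of inflammatory macrophages and activated T cells.

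The libraries held 113904173 and 119758159 UMIs (unique molecular identifiers, 1 per captured RNA molecule) in the Sema4d-shRNA group, and 101909637 and 83513906 in the NC group. Of 45220 deposited cells 42359 were used, and clusters of them, made without any glycolysis gene, were named from marker genes. The class called tumour-like held 7312 and 8477 cells in the Sema4d-shRNA libraries and 5368 and 5172 in the NC libraries. The macrophage or monocyte-like class held 1744 and 2218 cells in the Sema4d-shRNA libraries and 3123 and 3832 in the NC libraries. The T and NK-like class held 471 and 910 cells against 352 and 253. Sema4d itself, the targeted gene, was at 3.86 and 5.49 UMIs per 1000000 UMIs of the class (CPM, the unit of every level below) in tumour-like cells of the Sema4d-shRNA libraries, against 6.65 and 7.45 CPM in those of the NC libraries. In macrophage-like cells Sema4d was at 63.4 and 78.6 CPM against 70.2 and 65.2 CPM, and in T and NK-like cells at 173 and 187 CPM against 258 and 240 CPM. Markers of one class were also counted in cells of another. RNA worth 7.66% and 7.12% of the tumour-like marker level stood in macrophage-like cells of the Sema4d-shRNA libraries, against 6.28% and 5.53% in the NC libraries, and in T and NK-like cells it was 5.99% and 10.9% against 4.78% and 4.76%.

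Aldoc was 11.7-fold higher in macrophage-like than in tumour-like cells, and Pfkp and Hk2 were 2.90-fold and 2.80-fold higher there. The other 7 members lay between -0.32 and 0.48 on the log2 scale in that contrast. T and NK-like cells had the highest Pfkp and the lowest Hk2 of the 3 classes. Between Sema4d-shRNA and NC tumours, 0 of 10 enzymes passed the test in T and NK-like, macrophage-like or tumour-like cells, where 0.546%, 0.257% and 0.585% of all genes tested did (edgeR quasi-likelihood test on UMIs summed per library and class, Benjamini-Hochberg adjusted over all genes of the class, threshold 0.05). At an unadjusted p under 0.05 there were 1, 4 and 3 of them in those classes, against 7.78%, 10.5% and 12.8% of all genes. DESeq2 called 0, 0 and 2 of them, against 0.198%, 0.313% and 1.34% of all genes it was given. In T and NK-like cells it gave no adjusted p for Hk1, Hk2, Pfkl, Aldoc and Pgk1, so these could not be called there. Among the differences that fell short were a higher Hk2 and a lower Eno1 in both macrophage-like and tumour-like cells and a higher Aldoc in macrophage-like cells.

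**Figure D1:**
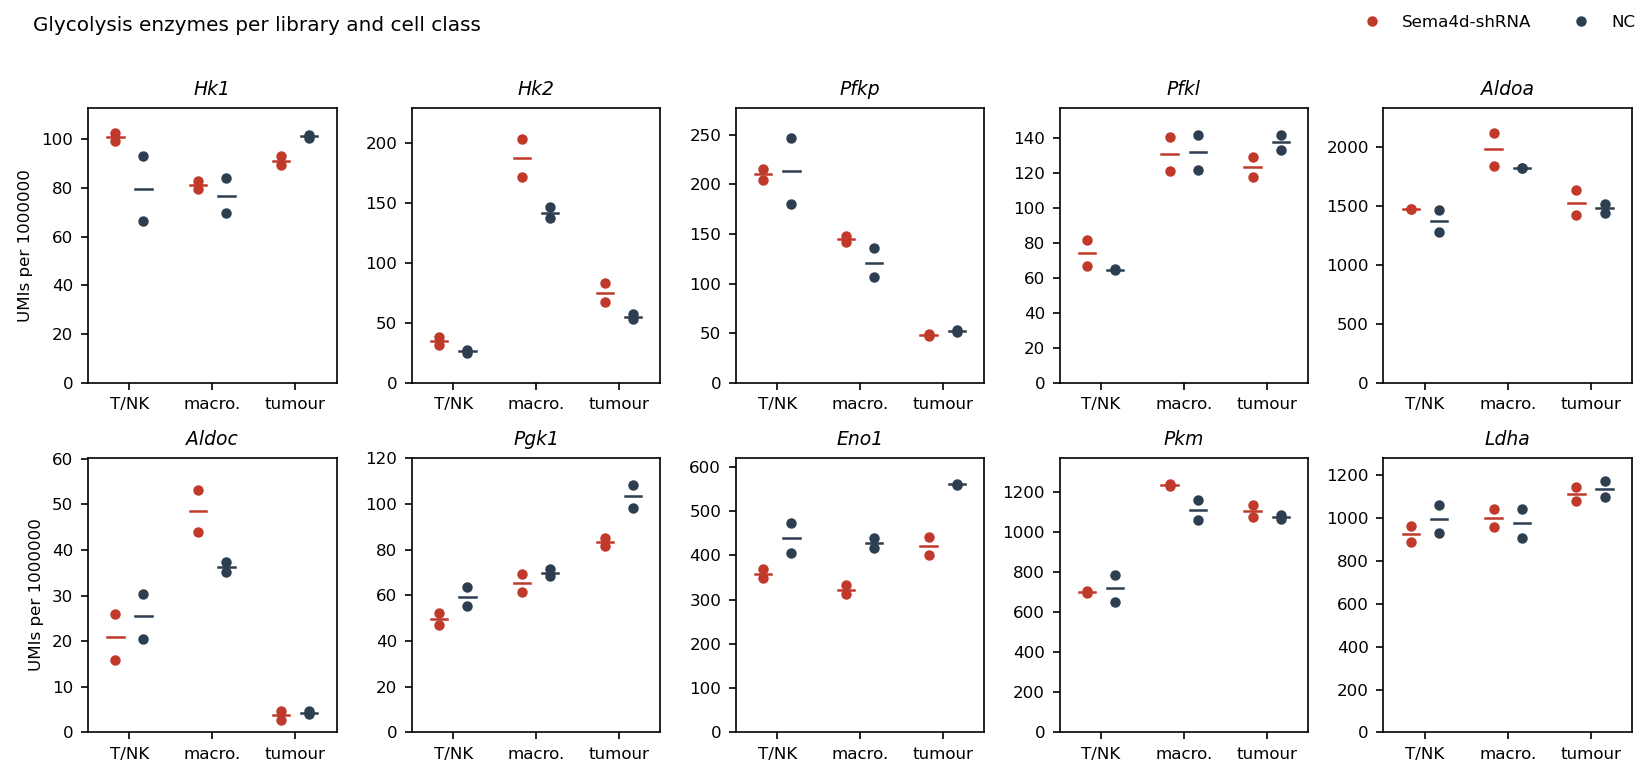
Level of each enzyme in CPM, by cell class (T and NK-like, macrophage or monocyte-like, tumour-like), with 1 point per library, the 2 Sema4d-shRNA libraries left of the 2 NC libraries and a bar at each mean. Hk2 and Aldoc separate the classes most widely, with Aldoc between 2.74 and 4.68 CPM in tumour-like cells and between 35.2 and 53.2 CPM in macrophage-like cells.

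Hexokinases trap glucose in the cell as glucose 6-phosphate. Hk1 was at 99.4 and 103 CPM in T and NK-like cells of the Sema4d-shRNA libraries and at 93.2 and 66.5 CPM in those of the NC libraries. In macrophage-like cells it was at 79.6 and 83.1 CPM against 84.0 and 69.8 CPM, and in tumour-like cells at 93.0 and 89.4 CPM against 102 and 100.5 CPM. Under the main scaling Hk1 was the only member that did not pass the test in any contrast between the 3 classes, with a log2 difference of -0.15 for macrophage-like minus tumour-like cells (SE 0.086, edgeR adjusted p = 0.124). Hk2 was at 37.7 and 31.8 CPM in T and NK-like cells of the Sema4d-shRNA libraries, and at 24.6 and 27.5 CPM in those of the NC libraries. In macrophage-like cells it was at 203 and 171 CPM in the Sema4d-shRNA libraries and 146 and 137 CPM in the NC libraries, and in tumour-like cells at 83.3 and 66.9 CPM against 53.0 and 57.3 CPM. Both Sema4d-shRNA libraries thus lay above both NC libraries in each class. Over the 4 libraries Hk2 averaged 164 ± 29.5 CPM in macrophage-like and 65.1 ± 13.4 CPM in tumour-like cells (SD, n = 4 each), a log2 difference of 1.48 (SE 0.064, edgeR adjusted p = 5.7e-14). It was lower in T and NK-like cells than in macrophage-like cells by a log2 difference of -2.70 (SE 0.092, edgeR adjusted p = 7.6e-15). Carry-over of RNA from the other 2 classes, estimated from the level of their marker genes, was subtracted and the rest rescaled. The mean Hk2 level in T and NK-like cells was then 13.9% lower. The source of the carried-over RNA was not tested.

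The promoters of the 2 hexokinase genes are shown because Hk2, and not Hk1, was higher in macrophage-like and lower in T and NK-like cells than in tumour-like cells. The sequences are from RefSeq on GRCm38.p6, 250 bases before to 50 bases after a transcript start, 5′ to 3′ on the gene's strand. Capitals mark ACGTG and GCGTG on either strand (CACGT and CACGC in the reverse reading), the core letters of the element that HIF-1 binds. The Hk2 window lies at chr6:82774405-82774704 on the minus strand and holds ACGTG at 2 places. The Hk1 window shown lies at chr10:62340372-62340671 on the minus strand and holds ACGTG at 2 places and GCGTG or its reverse at 3. Another Hk1 start, with its window at chr10:62379859-62380158, holds 0 of either.
Hk2: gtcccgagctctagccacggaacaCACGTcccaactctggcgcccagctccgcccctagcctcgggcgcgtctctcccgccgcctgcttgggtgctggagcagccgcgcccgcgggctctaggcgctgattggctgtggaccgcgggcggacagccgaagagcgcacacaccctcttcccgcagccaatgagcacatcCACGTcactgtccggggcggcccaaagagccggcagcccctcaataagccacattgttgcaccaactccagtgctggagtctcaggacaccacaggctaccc
Hk1: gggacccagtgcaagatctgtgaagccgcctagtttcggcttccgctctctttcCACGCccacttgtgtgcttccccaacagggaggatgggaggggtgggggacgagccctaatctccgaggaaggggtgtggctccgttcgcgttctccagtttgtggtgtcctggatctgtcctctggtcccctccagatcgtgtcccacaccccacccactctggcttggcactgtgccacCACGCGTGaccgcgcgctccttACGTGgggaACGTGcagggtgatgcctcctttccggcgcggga
All 10 genes had an entry, with 18 start windows between them. ACGTG stood in 8 of the 18 windows (7 of 10 genes), against 19.6% of all 32851 RefSeq mouse windows of the same 300 bases, and GCGTG in 10 of 18, against 32.4%. Either stood in 15 of the 18 windows, against 43.8% of all windows. A window with either was found for 10 of 10 genes, but genes with several starts had several chances. Some windows of Aldoa and of Eno1 also overlap, so the same match is counted more than once. These shares are thus a description only.

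Phosphofructokinase commits fructose 6-phosphate to glycolysis, and Pfkp (platelet type) and Pfkl (liver type) encode subunits of it. Pfkp was at 215 and 205 CPM in T and NK-like cells of the Sema4d-shRNA libraries and 247 and 181 CPM in those of the NC libraries. It was at 142 and 148 CPM against 135 and 106 CPM in macrophage-like cells, and at 49.2 and 46.9 CPM against 52.9 and 51.3 CPM in tumour-like cells. The 3 classes did not overlap in any library. The log2 difference was 1.95 for T and NK-like minus tumour-like cells (SE 0.098, edgeR adjusted p = 3.0e-12) and 1.54 for macrophage-like minus tumour-like cells (SE 0.089, edgeR adjusted p = 1.1e-11). Pfkl ran the other way: it was at 82.0 and 66.7 CPM in T and NK-like cells of the Sema4d-shRNA libraries and 64.5 and 65.1 CPM in those of the NC libraries. Macrophage-like cells had 141 and 121 CPM against 142 and 122 CPM, and tumour-like cells 118 and 129 CPM against 142 and 133 CPM. It was lower in T and NK-like cells than in tumour-like cells, with a log2 difference of -1.02 (SE 0.10, edgeR adjusted p = 4.1e-08), and macrophage-like and tumour-like cells did not differ past the threshold (0.15, SE 0.082, edgeR adjusted p = 0.106). Without NC replicate 2 Pfkl passed in that contrast (0.26, edgeR adjusted p = 0.016), as it did with clusters made from all variable genes (0.26, 0.0072).

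Aldolase splits fructose 1,6-bisphosphate. Aldoa was at 1472 CPM in T and NK-like cells of both Sema4d-shRNA libraries and at 1468 and 1278 CPM in those of the NC libraries. It was at 1844 and 2119 CPM against 1820 and 1822 CPM in macrophage-like cells, and at 1424 and 1633 CPM against 1443 and 1520 CPM in tumour-like cells, where the groups overlapped. Macrophage-like cells were above tumour-like cells in 4 of 4 libraries (log2 difference 0.48, SE 0.062, edgeR adjusted p = 8.4e-07). Aldoc was at 16.0 and 25.9 CPM in T and NK-like cells of the Sema4d-shRNA libraries and 20.5 and 30.4 CPM in those of the NC libraries. Macrophage-like cells had 44.0 and 53.2 CPM in the Sema4d-shRNA libraries and 35.2 and 37.3 CPM in the NC libraries, while tumour-like cells had 2.74 and 4.68 CPM against 4.04 and 4.60 CPM. The log2 difference was 3.55 for macrophage-like minus tumour-like cells (SE 0.15, edgeR adjusted p = 1.4e-11) and 2.35 for T and NK-like minus tumour-like cells (SE 0.25, edgeR adjusted p = 1.3e-06). In cells thinned to 1000 UMIs each, 3.26% of macrophage-like cells and 0.406% of tumour-like cells held an Aldoc UMI, with 14.4% and 3.18% before thinning. Of 232 fibroblast-like cells 0 held one, in which median depth was 3229 UMIs against 3871 UMIs in macrophage-like and 9470 UMIs in tumour-like cells. With carry-over subtracted and the rest rescaled, the mean Aldoc level of tumour-like cells was 8.37% lower.

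The promoters of the aldolase pair are shown because Aldoc had the widest difference between classes, with the same letters in capitals. The Aldoc window shown lies at chr11:78322823-78323122 on the plus strand and the Aldoa window shown at chr7:126799129-126799428 on the minus strand. The Aldoc window shown holds 3 of the matches and the Aldoa window shown 1. Another Aldoc window, at chr11:78323948-78324247, holds 1. Other Aldoa windows, at chr7:126799205-126799504 and chr7:126800398-126800697, hold 1 and 0. The former overlaps the Aldoa window shown and holds the same match.
Aldoc: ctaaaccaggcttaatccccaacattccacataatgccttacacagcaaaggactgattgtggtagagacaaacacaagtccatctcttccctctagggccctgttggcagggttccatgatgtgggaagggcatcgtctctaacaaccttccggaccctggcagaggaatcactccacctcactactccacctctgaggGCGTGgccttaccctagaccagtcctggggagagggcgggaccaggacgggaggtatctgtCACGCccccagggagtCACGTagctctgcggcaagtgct
Aldoa: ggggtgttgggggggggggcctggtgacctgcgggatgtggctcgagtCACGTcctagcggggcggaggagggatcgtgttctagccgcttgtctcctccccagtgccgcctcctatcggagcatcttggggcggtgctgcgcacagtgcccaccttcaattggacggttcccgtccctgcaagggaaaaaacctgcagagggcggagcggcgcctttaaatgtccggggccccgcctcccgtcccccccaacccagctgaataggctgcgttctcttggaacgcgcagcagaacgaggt

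Pgk1, phosphoglycerate kinase, makes the first ATP that the pathway pays back. It was at 47.1 and 52.2 CPM in T and NK-like cells of the Sema4d-shRNA libraries against 55.3 and 63.6 CPM in those of the NC libraries. The values were 61.4 and 69.4 CPM against 71.7 and 68.3 CPM in macrophage-like cells, and 81.5 and 85.0 CPM against 98.3 and 108 CPM in tumour-like cells. Tumour-like cells had the highest level of the 3 classes: the log2 difference was -0.90 for T and NK-like minus tumour-like cells (SE 0.095, edgeR adjusted p = 7.8e-08) and -0.32 for macrophage-like minus tumour-like cells (SE 0.072, edgeR adjusted p = 0.00052). Eno1, enolase, makes phosphoenolpyruvate. It was at 368 and 349 CPM in T and NK-like cells of the Sema4d-shRNA libraries, against 473 and 406 CPM in those of the NC libraries. In macrophage-like cells the values were 312 and 332 CPM against 439 and 416 CPM, and in tumour-like cells 443 and 402 CPM against 558 and 562 CPM. The 2 groups did not overlap in any of the 3 classes, with the Sema4d-shRNA libraries below. Eno1b, a near-identical processed copy of Eno1 whose reads can be exchanged with it in counting, was at 142 and 116 CPM in tumour-like cells of the Sema4d-shRNA libraries and 107 and 129 CPM in those of the NC libraries. The sum of Eno1 and Eno1b there was 584 and 518 CPM against 666 and 691 CPM, so the groups did not overlap in the sum. In macrophage-like cells the sum was 410 and 423 CPM against 530.3 and 510.2 CPM, also without overlap. In T and NK-like cells it was 494 and 439 CPM against 569 and 480 CPM, where the groups overlapped. The Eno1b part of the pair was higher in both Sema4d-shRNA libraries of each class. It was 24.3% and 22.4% against 16.1% and 18.6% in tumour-like cells. In macrophage-like cells it was 23.9% and 21.4% against 17.25% and 18.5%, and in T and NK-like cells 25.4% and 20.6% against 16.9% and 15.4%. Whether counts moved between the copies was not tested. Pgk1 likewise has a listed copy, Pgk1-rs7, at 34.3 and 29.9 CPM in tumour-like cells of the Sema4d-shRNA libraries and 25.8 and 32.1 CPM in those of the NC libraries.

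Pkm, pyruvate kinase, makes pyruvate and ATP. Its splice forms cannot be told apart in counts per gene. It was at 695 and 705 CPM against 788 and 652 CPM in T and NK-like cells of the Sema4d-shRNA and NC libraries, at 1229 and 1241 CPM against 1162 and 1063 CPM in macrophage-like cells, and at 1078 and 1137 CPM against 1087 and 1068 CPM in tumour-like cells. Pkm was lower in T and NK-like than in macrophage-like cells by a log2 difference of -0.99 (SE 0.067, edgeR adjusted p = 1.8e-10) and lower than in tumour-like cells by -0.75 (SE 0.066, edgeR adjusted p = 6.7e-09). Ldha, lactate dehydrogenase A, turns pyruvate into lactate. It was at 964 and 888 CPM against 1061 and 930 CPM in T and NK-like cells, at 956 and 1042 CPM against 1044 and 906 CPM in macrophage-like cells, and at 1079 and 1145 CPM against 1172 and 1100 CPM in tumour-like cells, with overlapping groups in each class. Its log2 difference was -0.05 for macrophage-like minus tumour-like cells (SE 0.061, edgeR adjusted p = 0.478) and -0.35 for T and NK-like minus tumour-like cells (SE 0.062, edgeR adjusted p = 5.5e-05). The first Ldha start, at chr7:46845554-46845853 on the plus strand, is shown because it held the most matches of the 18 windows. They number 7, counted per strand, and include CACGTG, the E-box letters that Myc binds, which hold ACGTG on both strands.
Ldha: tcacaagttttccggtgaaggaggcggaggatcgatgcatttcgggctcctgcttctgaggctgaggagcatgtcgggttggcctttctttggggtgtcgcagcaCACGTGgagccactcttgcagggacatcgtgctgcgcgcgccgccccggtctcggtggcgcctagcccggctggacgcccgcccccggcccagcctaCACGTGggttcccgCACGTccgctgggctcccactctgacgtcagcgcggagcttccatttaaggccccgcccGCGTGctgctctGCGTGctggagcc

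Counted over the contrasts, macrophage-like cells were higher than tumour-like cells for 5 members and lower for 2, against 39.6% and 41% of all genes. T and NK-like cells were higher than tumour-like cells for 2 and lower for 7, against 29.4% and 37.3% of all genes. They were higher than macrophage-like cells for 1 (Pfkp) and lower for 8, against 24.3% and 29.8%. In either direction 7 of 10 members passed in the first of these contrasts, against 80.5% of 13431 genes. The count was 9 of 10 in T and NK-like minus tumour-like cells, against 66.7%, and 9 of 10 in T and NK-like minus macrophage-like cells, against 54.1%. Scaling to library totals in place of TMM (trimmed mean of M-values, edgeR's scaling) moved the median of all genes to -0.16, -0.00 and 0.19 in the 3 contrasts, against -0.02, -0.12 and -0.07 under TMM. In T and NK-like minus macrophage-like cells it gave 4618 genes higher and 3019 lower, against 3263 and 3997 under TMM. With library totals Eno1 turned to 0.10 (edgeR adjusted p = 0.241) and Hk1 to 0.23 (0.064) in T and NK-like minus macrophage-like cells, where the values under TMM were -0.165 and -0.03. Eno1 also lost its call there without NC replicate 1, NC replicate 2 or Sema4d-shRNA replicate 2 (edgeR adjusted p = 0.145, 0.131 and 0.124), and its CPM was higher in T and NK-like cells in 3 of 4 libraries. Library totals also ended the calls of Pkm in macrophage-like minus tumour-like cells (0.10, adjusted p = 0.139), of Aldoa in T and NK-like minus tumour-like cells (-0.08, 0.265) and of Ldha in T and NK-like minus macrophage-like cells (-0.04, 0.616). They gave calls of Hk1 (-0.29, adjusted p = 0.0041) and Ldha (-0.19, 0.0086) in macrophage-like minus tumour-like cells. Aldoa in T and NK-like minus tumour-like cells also lost its call without NC replicate 2 (-0.07, adjusted p = 0.460). The differences of Hk2, Pfkp and Aldoc kept their direction and call in all 3 contrasts under that scaling.

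The isozyme shares put the same data as a ratio within a step. Hk2 made up 27.5% and 23.6% of the Hk1 and Hk2 UMIs in T and NK-like cells of the Sema4d-shRNA libraries and 20.9% and 29.2% in those of the NC libraries. In macrophage-like cells its share was 71.9% and 67.3% against 63.5% and 66.3%. With cells thinned to 1000 UMIs the macrophage-like shares overlapped, at 71.1% and 67.2% against 64.4% and 68.1%. In tumour-like cells the Hk2 share of summed UMIs was 47.2% (95% exact Clopper-Pearson interval 46.5 to 48.0) and 42.8% (42.0 to 43.6) in the Sema4d-shRNA libraries, against 34.2% (33.3 to 35.1) and 36.3% (35.3 to 37.4) in the NC libraries. The tumour-like groups averaged 45.0 ± 3.14% and 35.3 ± 1.5% (SD, n = 2 each), a difference of 9.75 percentage points. The groups did not overlap, and the exact two-sided permutation test gave p = 0.333, which is the smallest that 2 against 2 libraries allow, so none of the 9 shares tested could pass. With carry-over subtracted the difference was 10.1 percentage points. The intervals cover counting error only. A UMI stands for a molecule whatever its length, so the UMI shares are the main values. With UMIs divided by the gene's joined exon length, as an alternative, Hk2 made up 31.9% of the pair in T and NK-like, 74.2% in macrophage-like and 50.1% in tumour-like cells over all libraries.

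Aldoc was a minor share of aldolase in every class. It made up 1.07% and 1.73% of the Aldoa and Aldoc UMIs in T and NK-like cells of the Sema4d-shRNA libraries and 1.38% and 2.32% in those of the NC libraries. In macrophage-like cells it was 2.33% and 2.45% against 1.90% and 2.01%, and in tumour-like cells 0.192% and 0.286% against 0.279% and 0.302%. In summed UMIs the macrophage-like groups did not overlap and the others did (exact two-sided p = 0.333 in macrophage-like cells, 0.667 in the other two classes). With cells thinned to 1000 UMIs the macrophage-like shares overlapped, at 1.69% and 2.06% against 1.71% and 1.81%. With UMIs divided by joined exon length the Aldoc share over all libraries was 1.78% in T and NK-like, 2.40% in macrophage-like and 0.297% in tumour-like cells. Pfkp made up 75.2% of Pfkp and Pfkl UMIs in T and NK-like cells, 49.6% in macrophage-like and 27.8% in tumour-like cells over all libraries. With UMIs divided by exon length these shares were 60.2%, 32.9% and 16.1%. In macrophage-like cells Pfkp made up 50.2% and 55.0% in the Sema4d-shRNA libraries and 48.8% and 46.6% in the NC libraries, without overlap.

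**Figure D2:**
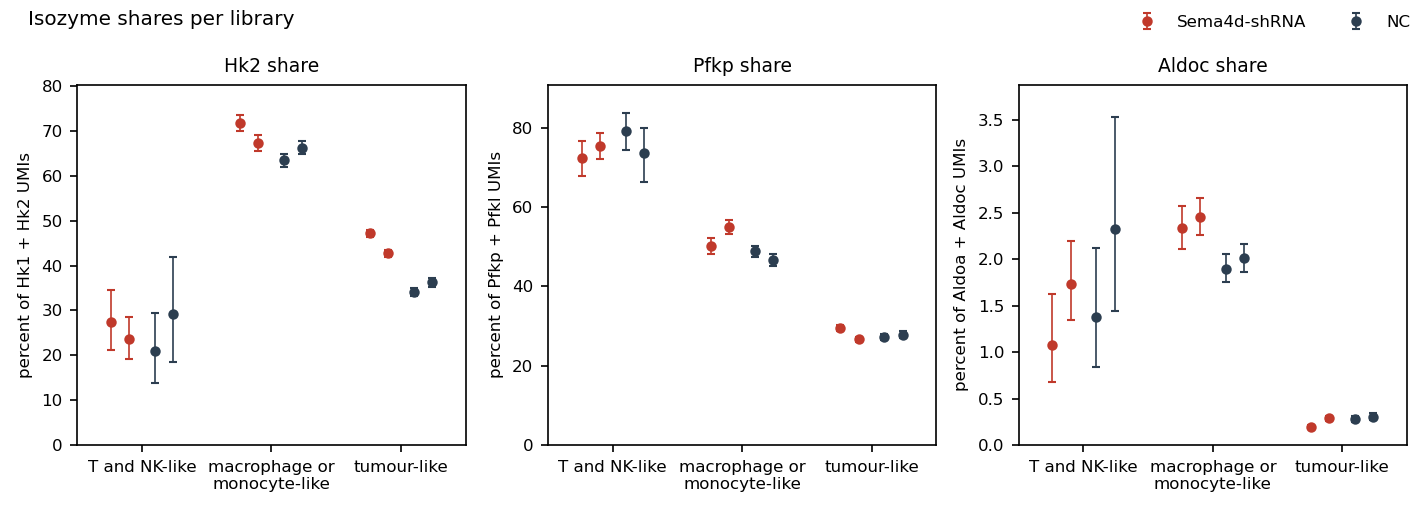
Share of Hk2 among Hk1 and Hk2 UMIs, of Pfkp among Pfkp and Pfkl UMIs and of Aldoc among Aldoa and Aldoc UMIs, in percent, by cell class, with 1 point per library and the exact 95% binomial interval as a bar. The Hk2 share of tumour-like cells is 47.2% and 42.8% in the Sema4d-shRNA libraries and 34.2% and 36.3% in the NC libraries.

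The comparison of Sema4d-shRNA with NC tumours asks whether knockdown in the tumour line goes with another glycolysis level in the tumour cells or in the host cells around them. In tumour-like cells Hk2 had the largest log2 difference of the 10 members, 0.49 (SE 0.10, edgeR unadjusted p = 0.0013, adjusted p = 0.092), and Eno1 followed with -0.36 (SE 0.083, adjusted p = 0.112) and Pgk1 with -0.26 (SE 0.084, adjusted p = 0.240). The other 7 lay between -0.16 and 0.10. Over all genes of the class 0.585% of 14528 passed and 12.8% had an unadjusted p under 0.05. Read as levels, 1 member had both Sema4d-shRNA libraries above both NC libraries (Hk2) and 5 had them below (Hk1, Pfkp, Pfkl, Pgk1, Eno1), while 13.5% and 30.7% of all genes did so. DESeq2, which passed 1.34% of the 20365 genes it was given in this class, called Hk2 (adjusted p = 0.0036) and Eno1 (0.018). Without a filter on low counts edgeR called Hk2 at 0.51 (adjusted p = 0.037). Without Sema4d-shRNA replicate 2 Hk2 was called at 0.63 (edgeR adjusted p = 0.0064), but that fit has 1 Sema4d-shRNA library, assumed to vary like the NC libraries, and 341 genes were called in it, against 85.

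In macrophage-like cells the largest were Aldoc at 0.50 (SE 0.11, edgeR adjusted p = 0.117), Hk2 at 0.48 (SE 0.12, 0.149), Pfkp at 0.34 (SE 0.12, 0.339) and Eno1 at -0.33 (SE 0.11, 0.298), with 0.257% of 12465 genes passing. Here 5 members had both Sema4d-shRNA libraries above both NC libraries and 1, Eno1, had them below, against 12.5% and 31.8% of all genes. Without Sema4d-shRNA replicate 2 Hk2 was called at 0.64 (edgeR adjusted p = 0.0026), and without Sema4d-shRNA replicate 1 Aldoc was called at 0.59 (0.012). In these fits too the lone Sema4d-shRNA library is assumed to vary like the NC libraries, and 432 and 151 genes were called in them, against 32. In T and NK-like cells Hk2 was at 0.43 (SE 0.28, edgeR adjusted p = 0.791), Hk1 at 0.34 (SE 0.18, 0.679) and Eno1 at -0.27 (SE 0.13, 0.614), and 0.546% of 8057 genes passed. Hk1, Hk2, Pfkl and Aldoa had both Sema4d-shRNA libraries above both NC libraries and Pgk1 and Eno1 had them below, 4 and 2 members against 17.2% and 20.1% of all genes. The Hk2 value there rests on 176 UMIs in all 4 libraries, with 19 in the smallest.

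**Figure D3:**
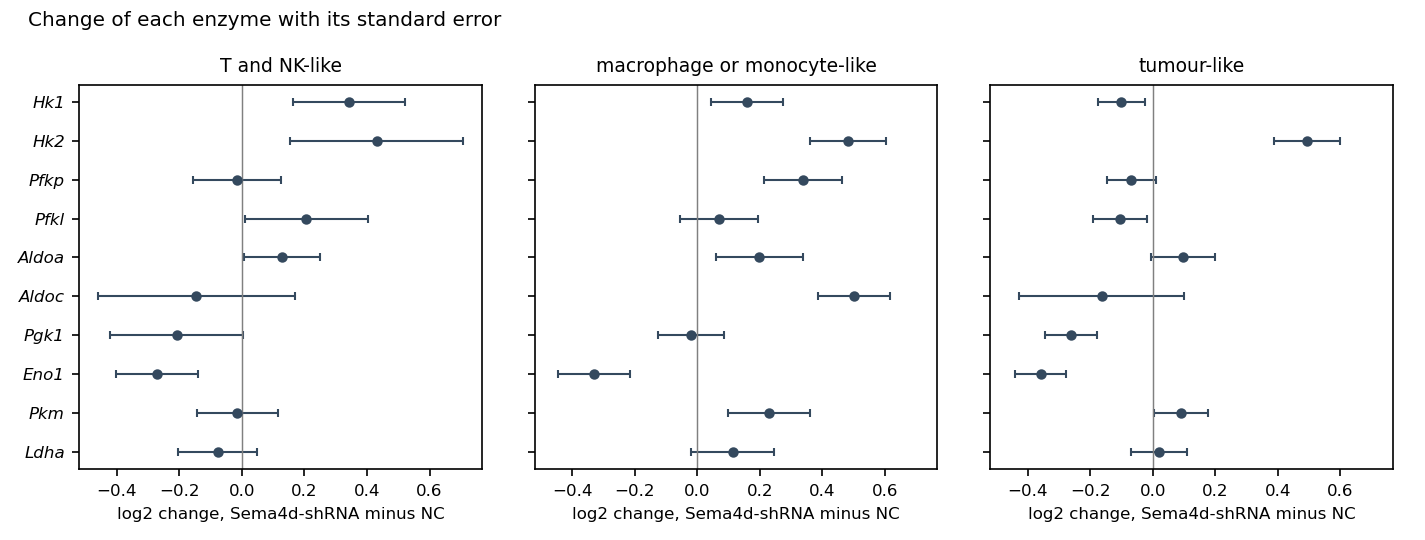
log2 difference of each enzyme, Sema4d-shRNA minus NC, with its standard error as a bar, by class, from T and NK-like over macrophage-like to tumour-like cells (2 libraries per group, edgeR). Hk2 lies at 0.43, 0.48 and 0.49 and Eno1 at -0.27, -0.33 and -0.36, and no enzyme passes the adjusted threshold.

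Whether the difference between groups itself differed between classes was tested with an interaction term. Aldoc passed for macrophage-like against tumour-like cells (log2 difference of the differences 0.68, SE 0.18, edgeR adjusted p = 0.024, where 3.01% of 14355 genes passed), and 0 of 10 members passed for T and NK-like against tumour-like cells or against macrophage-like cells, where 0.425% and 0.146% of genes did. At an unadjusted edgeR p under 0.05 Hk1 alone of the members stood in the first of those contrasts (0.50, SE 0.18, edgeR adjusted p = 0.446) and 0 members in the second. For macrophage-like against tumour-like cells, Pfkp (0.41, SE 0.13, edgeR adjusted p = 0.073) and Hk1 (0.26, SE 0.13, 0.400) stood there beside Aldoc. The share of all genes at that unadjusted threshold was not computed. The Aldoc call did not hold without NC replicate 1, NC replicate 2 or Sema4d-shRNA replicate 1 (0.76, 0.64 and 0.43, with edgeR adjusted p = 0.115, 0.416 and 0.374), each a fit with 1 library in a group. For Hk2 the difference of the differences was -0.02 (SE 0.12, edgeR adjusted p = 0.979) and for Eno1 0.02 (SE 0.12, 0.975), macrophage-like against tumour-like. Of the 47 other pathway genes, Hk3 (1.16, edgeR adjusted p = 6.8e-05) and Slc16a3 (0.78, 0.0013) passed for macrophage-like against tumour-like cells.

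The make-up of the classes moved with the groups. Among tumour-like cells, the cluster led by Car9 and Cryab (cluster 1) held 19.2% and 24.9% in the Sema4d-shRNA libraries and 9.74% and 11.7% in the NC libraries. The cluster led by Slurp1 and H19 (cluster 2) held 5.85% and 3.87% against 22.6% and 23.4%. Among macrophage-like cells, the cluster led by Mmp12 and holding Nos2 among its leading genes (cluster 13) held 25.7% and 24.5% against 14.02% and 11.1%, and the one led by Ms4a7 with the C1q genes (cluster 11) 41.9% and 47.9% against 52.6% and 63.8%. Within tumour-like clusters the ratio of group means of Hk2 ran from 0.16 to 0.62 on the log2 scale and was above 0 in 7 of 7 clusters, 5 of them without overlap of the libraries. With each tumour-like cluster given equal weight Hk2 was at 0.42, against 0.44 for the summed cells on the same scale. Within macrophage-like clusters it ran from 0.04 to 0.31 with overlap in 5 of 5, and the equal-weight value was 0.11, against 0.40 summed. Eno1 was below 0 in all 12 clusters, from -0.60 to -0.32 in tumour-like and from -0.60 to -0.21 in macrophage-like ones, without overlap in 11. Aldoc in macrophage-like clusters ran from -0.85 in cluster 9 (10.3 and 8.83 CPM against 16.2 and 18.3 CPM) to 0.96 in cluster 10 (37.0 and 59.2 CPM against 25.5 and 23.8 CPM), with 3 clusters above without overlap and 1 below. With equal weight per macrophage-like cluster Aldoa was at -0.06 and Pkm at 0.04. Pfkp was then at 0.07, against 0.26 summed on that scale, and it overlapped in 5 of 5 macrophage-like clusters. These cluster values are descriptions, with no test, and Eno1 is given in them without Eno1b. The share of all genes without overlap was not computed within clusters. In the whole tumour-like class 30.7% of genes had the Sema4d-shRNA libraries below without overlap and 13.5% above. In the macrophage-like class these shares were 31.8% and 12.5%.

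**Figure D4:**
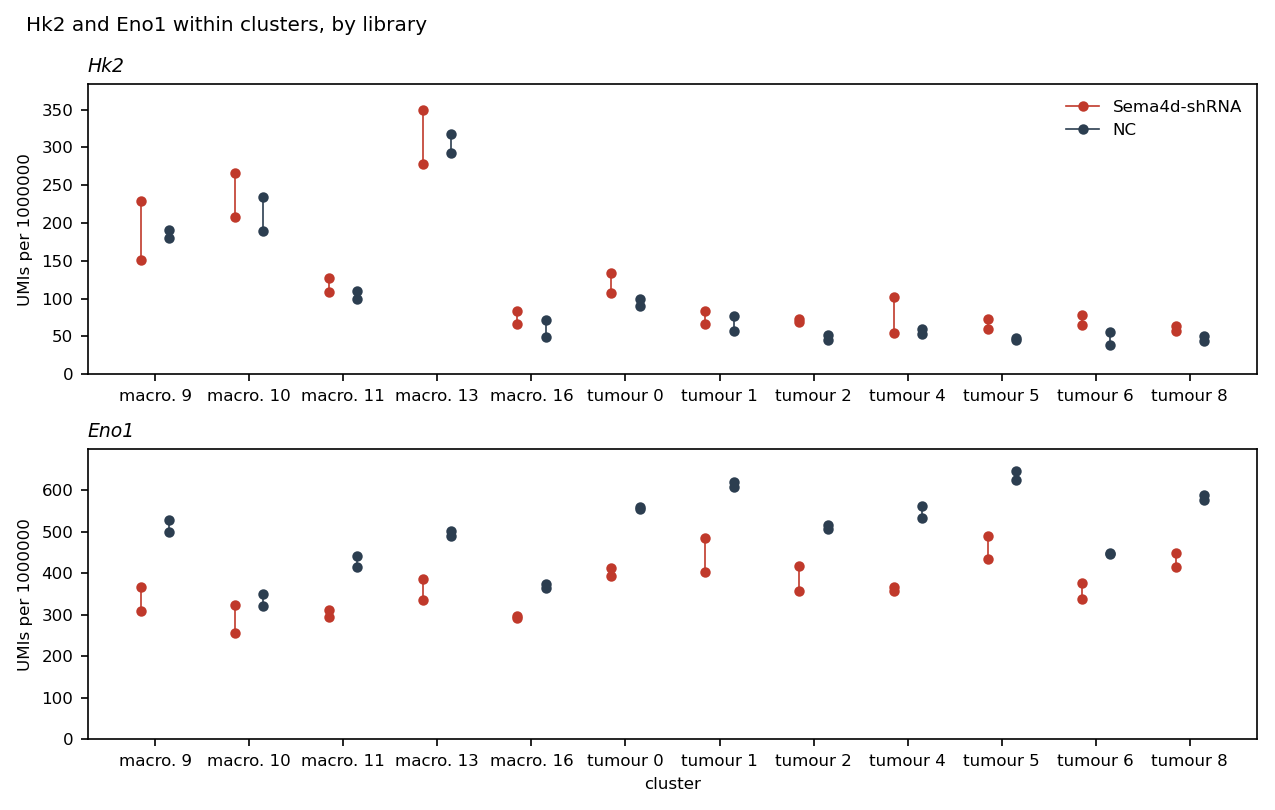
Hk2 and Eno1 in CPM within each macrophage or monocyte-like and tumour-like cluster, with 1 point per library, the 2 Sema4d-shRNA libraries joined by a line left of the 2 NC libraries. Eno1 is lower in the Sema4d-shRNA libraries without overlap in 11 of the 12 clusters, and Hk2 overlaps in all 5 macrophage-like clusters. Eno1b is not added to Eno1, and the share of all genes without overlap within clusters was not computed.

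The clusters of a class differed in level, given here with no test since the same cells made the clusters. In tumour-like cells the summed level of the 10 members ran from 3738 CPM in cluster 4 (led by Kirrel3) to 5533 CPM in cluster 1, whose summed level of 12 hypoxia markers was also the highest, 1611 CPM against 947 CPM in cluster 4. Aldoa ran from 1016 to 2100 CPM over the same 2 clusters and Pgk1 from 71.2 to 113 CPM. Hk2 was highest not there but in cluster 0, led by Cxcl1 and interferon-induced genes such as Ifit3, at 112 CPM, against 72.8 CPM in cluster 1 and 53.2 CPM in cluster 2. Ldha and Eno1 were highest in cluster 5 (led by Ankrd1), at 1273 and 529 CPM. The proliferating cluster 8, led by Pbk and with Cdk1 among its leading genes, had the lowest Hk1, Pfkl and Aldoc, at 79.4, 108.5 and 2.19 CPM.

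In macrophage-like cells cluster 13 had the highest level of 7 members, with Hk2 at 308 CPM, Aldoa at 2835 CPM, Ldha at 1387 CPM and Pkm at 1509 CPM, and the highest summed hypoxia markers, 2074 CPM. The leading genes of cluster 13 were Mmp12 (macrophage elastase), Atp6v0d2, Ifnb1, Mmp13, Gpnmb, H2-M2, Gdf15, Rnase2a, Hmox1 and Nos2, in that order. Nos2, inducible nitric oxide synthase, is a known product of inflammatory macrophages, but the cluster is not named from it. Cluster 9, led by Ly6i, Plac8 and Ly6c2, genes of monocytes, had the highest Pfkp (258 CPM) and Hk1 (104 CPM) and the lowest Aldoc (13.8 CPM), against 45.1 CPM Aldoc in the C1q cluster 11. Cluster 16, led by histone genes of replicating cells, had the lowest Hk2, at 64.7 CPM. In T and NK-like cells, of the 10 sub-clusters of at least 50 cells, the one that expressed Foxp3 and Cd4 (516 and 150 CPM, 72 cells) had the highest summed members, 5643 CPM, with Hk2 at 68.3 CPM. The NK-like sub-cluster with Ncr1 at 151 CPM and Cd3e at 18.2 CPM (324 cells) had 3027 CPM. The lowest, 2445 CPM, was in a sub-cluster of 191 cells with Cd3e at 315 CPM and no Cd4 UMI. Hk2 rests on 12 UMIs in the Foxp3 sub-cluster, so its place there is weak.

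**Figure D5:**
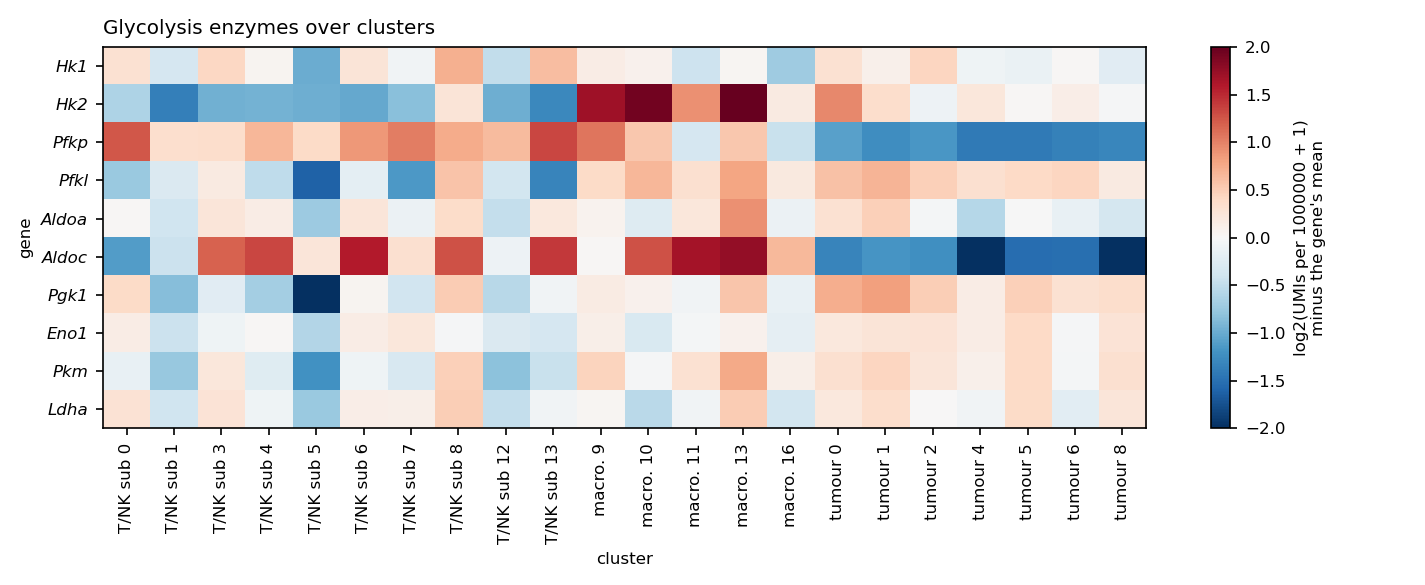
Level of each enzyme over T and NK-like sub-clusters of at least 50 cells, macrophage or monocyte-like clusters and tumour-like clusters, as log2(CPM + 1) minus the gene's mean over the columns shown, all 4 libraries summed, with colours capped at a size of 2. Hk2 is highest in macrophage-like cluster 13 (308 CPM), Pfkp is low in all tumour-like clusters (45.3 to 57.2 CPM) and Aldoc lowest in tumour-like cluster 8 (2.19 CPM).

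The hypoxia markers are given beside the members as levels. Their sum was 869 and 715 CPM in T and NK-like cells of the Sema4d-shRNA libraries against 722 and 643 CPM in those of the NC libraries, 1233 and 1169 CPM against 1050 and 885 CPM in macrophage-like cells, and 1211 and 1236 CPM against 1077 and 1175 CPM in tumour-like cells. Of the 12 markers 3, 7 and 5 had both Sema4d-shRNA libraries above both NC libraries in these classes, against 17.2%, 12.5% and 13.5% of all genes, and 0, 0 and 1 had them below, against 20.1%, 31.8% and 30.7%. The summed levels overlapped between the groups in T and NK-like cells and not in the other two classes. Car9 was at 5.55 and 8.56 CPM against 8.03 and 6.23 CPM in macrophage-like cells and at 38.8 and 45.7 CPM against 40.6 and 49.8 CPM in tumour-like cells, with overlap. The summed members were 3996 and 3898 CPM against 4295 and 3699 CPM in T and NK-like cells, 5013 and 5380 CPM against 5079 and 4749 CPM in macrophage-like cells, and 4451 and 4739 CPM against 4712 and 4706 CPM in tumour-like cells, with overlap in each class. The part of hypoxia markers, cluster make-up or carried-over RNA in the differences of single members was not tested.

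The smaller classes are given as levels only. Hk1 was highest in endothelial-like cells (204 CPM over 79 cells, from 158 to 286 CPM per library), whose range did not overlap that of T and NK-like cells, next in order. Hk2 followed the order macrophage-like, neutrophil-like (152 CPM), tumour-like, normal mammary epithelium-like (59.2 CPM), fibroblast-like (52.3 CPM), T and NK-like and endothelial-like (23.1 CPM), with ranges that overlapped between all neighbours. Aldoc was highest in normal mammary epithelium-like cells (80.2 CPM, 166 cells, from 61.2 to 152 CPM), above and without overlap with macrophage-like cells. It was at 0 of 647 aldolase UMIs in fibroblast-like cells, which allows a share of up to 0.464% (3 counts of the total), or 0.569% by the upper limit of the exact 95% Clopper-Pearson interval. Fibroblast-like cells had the lowest level of 7 members, among them Pgk1 (24.3 CPM), Ldha (484 CPM) and Pkm (369 CPM). Pgk1, Eno1 and Ldha were highest in tumour-like cells, at 91.1, 478 and 1123 CPM. For Eno1 and Ldha that range overlapped the neutrophil-like one, next in order. For Pgk1 it ran from 81.5 to 108 CPM and did not overlap the macrophage-like one, next in order. It did overlap the neutrophil-like (41.4 to 123 CPM) and endothelial-like ones (46.5 to 91.9 CPM). Pkm was highest in endothelial-like cells (1158 CPM) with a range that overlapped the macrophage-like one.

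Of 47 other genes of the pathway (further isozymes, transporters and regulators), 25 were tested in T and NK-like, 33 in macrophage-like and 34 in tumour-like cells, and 0 passed between Sema4d-shRNA and NC tumours in any class, against 0.546%, 0.257% and 0.585% of all genes. At an unadjusted p under 0.05 there were 0, 6 and 4, against 7.78%, 10.5% and 12.8% of all genes, and the lowest adjusted p-values were 0.737, 0.117 and 0.073. Their median log2 difference was 0.09, 0.01 and 0.06 in these classes, that of the 10 members -0.02, 0.18 and -0.08, and that of all genes tested 0.00, 0.00 and 0.01. The 3 highest levels were those of Gapdh, Tpi1 and Gpi1 in T and NK-like cells (3028, 566 and 372 CPM) and of Gapdh, Tpi1 and Pgam1 in macrophage-like cells (3520, 748 and 708 CPM) and tumour-like cells (5125, 1039 and 651 CPM). Gapdh makes the NADH of the pathway and Tpi1 interconverts the triose phosphates. Gapdh, Pgk1, Ldha, Pkm and Eno1 have processed copies in the mouse genome, which the counting could have split.

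The genes most like each member in pattern were ranked by Pearson's r of log2(CPM + 1) over 19 clusters of at least 100 cells, among 5643 genes, as a description, since the clusters share libraries and depth. For Pgk1 they were Gapdh (0.957), Tpi1 (0.939) and Gm3839 (0.906), and for Ldha Tpi1 (0.939), Gapdh (0.935) and Mif (0.881). Eno1 was closest to Eno1b (0.968), then Gapdh (0.914) and Pgk1 (0.902). Aldoa was closest to Gpi1 (0.926), Bnip3 (0.913) and Ankrd37 (0.876), and Pkm to Pgam1 (0.927), Bnip3 (0.917) and Ankrd37 (0.882). Bnip3, Ankrd37 and Ndrg1 are on the list of hypoxia markers. The isozymes that separate classes had other neighbours: for Hk2 they were Nos2 (0.913), Trim25 (0.887) and Hmox1 (0.884), for Pfkp Itgb7 (0.95), Il7r (0.944) and Napsa (0.930), and for Aldoc Stxbp2 (0.943), Gnal (0.922) and BC005624 (0.909). Pfkl was closest to Pgk1 (0.878), Ints12 (0.864) and Pgam1 (0.834), and Hk1 had the weakest likeness, with Rnf2 (0.819), Cast (0.778) and Ndrg1 (0.768).

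The members lie on 8 chromosomes of GRCm38, in the GENCODE M21 annotation matched by symbol, and all are protein-coding. Hk2 is at chr6:82725025-82774454 and Hk1 at chr10:62268855-62379908, both on the minus strand. Pfkp is at chr13:6579768-6648777 and Pfkl at chr10:77986947-78010083, both on the minus strand. Aldoc is at chr11:78322968-78327781 on the plus strand, and Aldoa at chr7:126795234-126800751 on the minus strand, where a further gene model of that symbol follows. Pgk1 is at chrX:106187100-106203699, Eno1 at chr4:150236721-150248879, Pkm at chr9:59656368-59679375 and Ldha at chr7:46841475-46855627, all on the plus strand.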

How the data were processed

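The deposited files hold whole-number UMI counts per gene and cell for 4 libraries, written by PISA 1.0 per the file headers. STAR 2.5.1b and the builds GRCh38 and mm10 are named in the submitters' processing notes, with no role given, and the annotation is not given in the sources used here. No deposited cell has under 1000 UMIs. Cell names are running numbers, of which pairs of libraries share 756 to 3782, so shared barcodes could not be counted.

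Cells under 300 genes or over 20% mitochondrial UMIs were dropped, and the 6% with the highest doublet score per library were left out. Clusters were made in scanpy 1.11.5 (2000 variable genes without the glycolysis list, 30 components, 15 neighbours, Leiden resolution 1) and named from marker genes, with limits on the marker scores set after the data were seen. Clusters could thus be named otherwise than by the study, and 2524 cells stayed unnamed. UMIs were summed per library and class, and CPM is UMIs per 1000000 UMIs of that class. Groups were compared with edgeR 4.0.16 (quasi-likelihood test, filterByExpr, TMM, Benjamini-Hochberg), on code tested on simulated data. Contrasts between classes, and the interaction of class and group, had the library as a block. DESeq2 1.42.0, other scalings, filters, clusterings and each library left out were alternatives. Isozyme shares have exact Clopper-Pearson intervals at 95%. All members are described, with the 3 genes most like each member. Of the other pathway genes, those that passed between Sema4d-shRNA and NC tumours (0) or were among the 3 highest of a class are named. The pathway genes under other observations were chosen after their values were seen. The members and lists were chosen with earlier results of these data known.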

Additional observations from a re-analysis of the deposited data

Results flagged for a closer look

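The difference between Sema4d-shRNA and NC tumours in Aldoc was not the same in macrophage-like and tumour-like cells by an interaction term in edgeR (log2 difference of the differences 0.68, adjusted p = 0.024). Aldoc was at 44.0 and 53.2 CPM in macrophage-like cells of the Sema4d-shRNA libraries, against 35.2 and 37.3 CPM in those of the NC libraries. In tumour-like cells it was at 2.74 and 4.68 CPM against 4.04 and 4.60 CPM. The value was 0.76, 0.64 and 0.43 without NC replicate 1, NC replicate 2 and Sema4d-shRNA replicate 1 (edgeR adjusted p = 0.115, 0.416 and 0.374), and 1.02 without Sema4d-shRNA replicate 2 (8.6e-05). Each of these fits has 1 library in a group, which is assumed to vary like the others. The call was not particular to Aldoc: with all 4 libraries the interaction also passed for Hk3 (1.16, edgeR adjusted p = 6.8e-05) and Slc16a3 (0.78, 0.0013). Macrophage-like marker RNA in tumour-like cells stood at 0.545% and 0.597% in the Sema4d-shRNA libraries against 1.19% and 1.36% in the NC libraries. Its part in these differences was not tested.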

How the results depend on the processing

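With 2 libraries per group, the members called in tumour-like cells numbered 0 in edgeR, 1 with no filter on low counts (Hk2), 2 with DESeq2 (Hk2 and Eno1) and 0 to 1 with a library left out. In macrophage-like cells they were 0 to 1 with a library left out, and the members whose change differed between macrophage-like and tumour-like cells were likewise 0 to 1. Of all genes, 85 were called in tumour-like cells, against 184 with no filter, 142 with the replicate block, 273 with DESeq2, 51 with clusters made with all variable genes and 11 to 341 with a library left out. In macrophage-like cells 32 were called, against 50 with library totals, 148 with the replicate block, 60 with DESeq2 and 18 to 432 with a library left out. In T and NK-like cells 44 were called, against 99 with no filter, 26 with the replicate block, 28 with DESeq2 and 71 to 93 with a library left out. Same-numbered libraries did not deviate together (r of -0.013, 0.061 and -0.015 in tumour-like, macrophage-like and T and NK-like cells), so the numbers are not read as pairs, and 0 members were called with the replicate block. The difference in the Aldoc share was 0.118 percentage points in macrophage-like and 0.0288 in tumour-like cells after thinning, against 0.438 and -0.0516.

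Members near 0 turned in sign. Between Sema4d-shRNA and NC tumours library totals gave Ldha -0.031 in tumour-like and Pfkl -0.012 in macrophage-like cells. Pfkp in T and NK-like cells was at 0.014 with no filter, 0.0148 with the replicate block, 0.057 at Leiden resolution 2 and 0.0156 with doublets kept, and Pkm there at 0.012 with no filter. Between classes, library totals gave Hk1 0.23 and Eno1 0.10 for T and NK-like minus macrophage-like cells, and clusters made with all variable genes gave Ldha 0.12 for macrophage-like minus tumour-like cells. With a library left out, tumour-like cells gave Ldha -0.039 to 0.081, Aldoc -0.62 to 0.19 and Aldoa -0.020 to 0.21. Macrophage-like cells gave Pgk1 -0.066 to 0.028 and Pfkl -0.085 to 0.22. T and NK-like cells gave Pfkp -0.22 to 0.25, Ldha -0.18 to 0.031, Pkm -0.16 to 0.14 and Aldoc -0.59 to 0.11. Between classes, Hk1 ran from -0.21 to 0.00016 and Ldha from -0.089 to 0.046 for macrophage-like minus tumour-like cells, and Hk1 from -0.30 to 0.023 for T and NK-like minus tumour-like and from -0.098 to 0.023 for T and NK-like minus macrophage-like cells. The causes were not tested. DESeq2 gave no adjusted p for Hk1, Hk2, Pfkl, Aldoc and Pgk1 in T and NK-like cells, whose smallest library held 253 cells.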

Other observations

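Some of the 47 other pathway genes, chosen after their values were seen, had levels that differed widely between the classes. Hk3, a hexokinase of myeloid cells, was at 3.04 CPM in T and NK-like, 141 CPM in macrophage-like and 1.22 CPM in tumour-like cells, and made up 37.4% of Hk1, Hk2 and Hk3 UMIs in macrophage-like cells. Slc16a3, the lactate exporter MCT4, was at 47.0, 177 and 2.48 CPM in these classes, while Slc16a1, the transporter MCT1, was at 22.2, 8.78 and 31.8 CPM. Eno3, muscle-type enolase, was at 29.8, 25.5 and 306 CPM, and Ldhb at 13.8, 22.2 and 115 CPM. Slc2a3, the glucose transporter GLUT3, was at 51.8, 2.10 and 1.02 CPM. For macrophage-like minus tumour-like cells the log2 difference was 6.99 for Hk3, 6.25 for Slc16a3 and -1.735 for Slc16a1. It was -3.43 for Eno3, -2.23 for Ldhb and 1.19 for Slc2a3. Each had an edgeR adjusted p of 0.000997 or lower, but the genes were chosen on the same values. In tumour-like cells Hk3 was at 0.942 and 0.823 CPM in the Sema4d-shRNA libraries and 1.78 and 1.64 CPM in the NC libraries (edgeR adjusted p = 0.126). Slc16a3 was at 1.75 and 1.93 CPM against 3.44 and 3.38 CPM (edgeR adjusted p = 0.073), so neither gene passed in tumour-like cells. Macrophage RNA in those cells stood at 0.545% and 0.597% of the macrophage-like marker level against 1.19% and 1.36%.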
